A study of Homo sapiens with 197 samples.

Results

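Human reference RNA, a commercial mixture of RNA from 10 cancer cell lines, filled 6 of the Nanostring lanes analysed (3.05% of them), and these 6 lanes were set against 3 lanes of IMR90 control cells. The reference lanes are those labelled as human reference with Agilent as their source, and the IMR90 lanes are those whose titles begin with that name. IMR90 is an established line of normal human lung fibroblasts. In the study, IMR90 cells were infected with retroviral vectors, each carrying 1 kinase activated by a myristoylation signal, and RNA was taken 4 days after infection to ask which kinases turn on genes that are normally restricted to testis, placenta or a few other tissues. The other lanes were these kinase wells (94.4% of all lanes) and 2 lanes of SW39, a transformed derivative of IMR90. The IMR90 control lanes carry the label of cells with empty vector, while the study's text also speaks of non-infected cells. They comprise 1 lane of control 1 and 2 lanes of control 2, and lanes of a control were averaged first, which leaves 2 controls. The second lane of control 2 carries the sample number that control 1 also has. Repeat lanes of the PIK3CG and PTK2 wells likewise carry numbers that other wells have. The mixture covers, per the methods, tumors of blood cells (lymphoblastic leukemia of T cells, histiocytic lymphoma, plasmacytoma), of breast, cervix and liver, of fat tissue, of glia and melanocytes, and an embryonal carcinoma of the testis. The labels of the 6 reference lanes name no treatment, and their cell line field reads IMR90 as in all lanes. All 6 hold the same RNA, so that they are repeats of 1 sample: their spread is that of the assay, no test between the reference RNA and IMR90 was possible, and the comparisons are descriptions.

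In the Nanostring assay, a probe with a colored barcode binds its target RNA, and barcodes are then counted singly without amplification. Of the 75 rows counted per lane, 58 are described: 57 endogenous rows, of which 42 are tissue-restricted genes, and the housekeeping gene B2M. Counts were scaled lane by lane so that 3 housekeeping genes (TBP, PGK1 and TUBB2A) had 1 common geometric mean, and such a scaled value is called a normalized count. A row was called detected in a lane if its raw count exceeded, in that lane, the mean of its 8 negative controls by over 2 SD, a limit called the negative-control level. Ratios are those of the geometric means of the normalized count + 1. Levels of different rows are not compared with each other, since probes differ in efficiency. Probe sequences were not used here, so that signal from near-identical gene copies, as in the MAGE, SSX, XAGE and CTAG families, cannot be told apart.

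Cancer/testis genes are expressed in germ cells of the testis, are kept silent in nearly all other normal cells, and are active again in many tumors. The silence of many of them depends on methylation of the CG dinucleotides in their promoters. Their proteins can be seen by T cells as tumor antigens, and some act in meiosis, in the defense of the germline against transposons or in sperm structure. RNA mixed from tumor lines serves as a positive control for probes to such genes.

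The promoters of 4 of these genes, PRAME, MAGEA3, CTCFL and TPTE, are shown because these genes mark the reference RNA below. Each runs from 250 bases before to 50 bases after a RefSeq transcription start, 5′ to 3′ on the strand of the gene in GRCh38.p14, and each CG dinucleotide is in capitals. The PRAME window lies at chr22:22559216-22559515 on the minus strand, that of MAGEA3 at chrX:152698544-152698843 on the plus strand, that of CTCFL at chr20:57524648-57524947 on the minus strand and that of TPTE at chr21:10521333-10521632 on the plus strand.
PRAME: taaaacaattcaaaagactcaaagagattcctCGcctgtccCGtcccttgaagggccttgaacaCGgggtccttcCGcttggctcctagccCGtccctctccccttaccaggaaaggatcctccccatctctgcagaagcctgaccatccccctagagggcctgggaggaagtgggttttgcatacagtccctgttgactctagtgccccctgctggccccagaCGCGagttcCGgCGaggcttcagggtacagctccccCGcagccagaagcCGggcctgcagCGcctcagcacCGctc
MAGEA3: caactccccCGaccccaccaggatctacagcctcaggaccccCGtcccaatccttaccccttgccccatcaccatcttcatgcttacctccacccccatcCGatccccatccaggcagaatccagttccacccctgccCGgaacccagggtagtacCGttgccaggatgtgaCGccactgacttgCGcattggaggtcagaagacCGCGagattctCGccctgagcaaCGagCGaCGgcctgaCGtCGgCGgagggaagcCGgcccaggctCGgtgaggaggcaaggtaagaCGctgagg
CTCFL: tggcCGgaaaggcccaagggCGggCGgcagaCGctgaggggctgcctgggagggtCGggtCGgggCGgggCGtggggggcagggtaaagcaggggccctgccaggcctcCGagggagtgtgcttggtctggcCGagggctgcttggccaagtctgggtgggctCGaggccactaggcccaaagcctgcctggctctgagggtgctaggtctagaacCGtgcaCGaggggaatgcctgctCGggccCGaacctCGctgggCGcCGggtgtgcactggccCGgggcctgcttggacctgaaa
TPTE: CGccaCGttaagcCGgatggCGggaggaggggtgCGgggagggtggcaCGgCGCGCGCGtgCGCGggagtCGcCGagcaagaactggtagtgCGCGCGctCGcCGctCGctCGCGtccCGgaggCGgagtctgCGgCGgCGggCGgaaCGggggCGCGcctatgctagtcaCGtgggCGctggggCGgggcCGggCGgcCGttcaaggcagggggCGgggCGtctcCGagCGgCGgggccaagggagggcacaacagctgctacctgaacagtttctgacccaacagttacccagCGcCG
The PRAME window held 13 CG dinucleotides, a number reached by 51.5% of the 27305 RefSeq promoter windows. The MAGEA3 and CTCFL windows held 19 each, which 43% of windows reach, and the TPTE window held 44, which 4.09% reach. The letters CCGGAA, the core of many ETS factor sites, were found once on either strand in the windows of PRAME, MAGEA3 and CTCFL and not in that of TPTE, against 17.6% of all windows with at least 1 match. This motif holds a CG of its own. PRAME and CTCFL have 3 RefSeq starts each, of which 1 is shown.

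The total count of a reference lane ranged from 108768 to 233536, and the IMR90 lanes held 142255, 152599 and 132257. The negative-control level lay between 28.96 and 40.1 counts in reference lanes 2 to 6, at 72.9 in reference lane 1 and between 17.1 and 25.9 in the IMR90 lanes. Reference lane 1 stood apart in its weak probes. Its NEG_H probe, a negative control, counted 80 against 5 to 7 in the other reference lanes, and values without this lane are given where it moved a result. The number of tissue-restricted rows detected was 17, 23, 28, 16, 15 and 17 in reference lanes 1 to 6, and 3, 3 and 5 in the IMR90 lanes.

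The reference RNA was 2-fold or more above IMR90 in 39 of the 58 rows (67.2%) and at 0.5 times IMR90 or less in 4 (6.9%). Among the 42 tissue-restricted genes, 33 were 2-fold or more higher (78.6%) and 0 were at 0.5 or less. Many of these ratios were between values near background. Of the 39 rows, 22 were not detected in every reference lane (37.9% of the 58) and 9 were detected in no reference lane (15.5%). Detection in every reference lane held for 24 of the 58 rows (41.4%), of which 13 were tissue-restricted (31% of 42), against 3 tissue-restricted genes in every IMR90 lane (7.14%), namely ADAM12, ATAD2 and ALAS1. Detected in every reference lane and in no IMR90 lane were 10 of the 58 rows (17.2%), all of them tissue-restricted: PRAME, MAGEA3, MAGEA12, TPTE, CTCFL, XAGE1, SSX1, SSX2, XAGE3 and HORMAD1. They are called detected only in the reference RNA below, which refers to the IMR90 lanes and not to the kinase wells. The median ratio was 2.67 over the 42 tissue-restricted genes and 2.30 over the 58 rows. A high level in 1 of the pooled lines and a lower level in several cannot be told apart in a mixture.

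**Figure D1:**
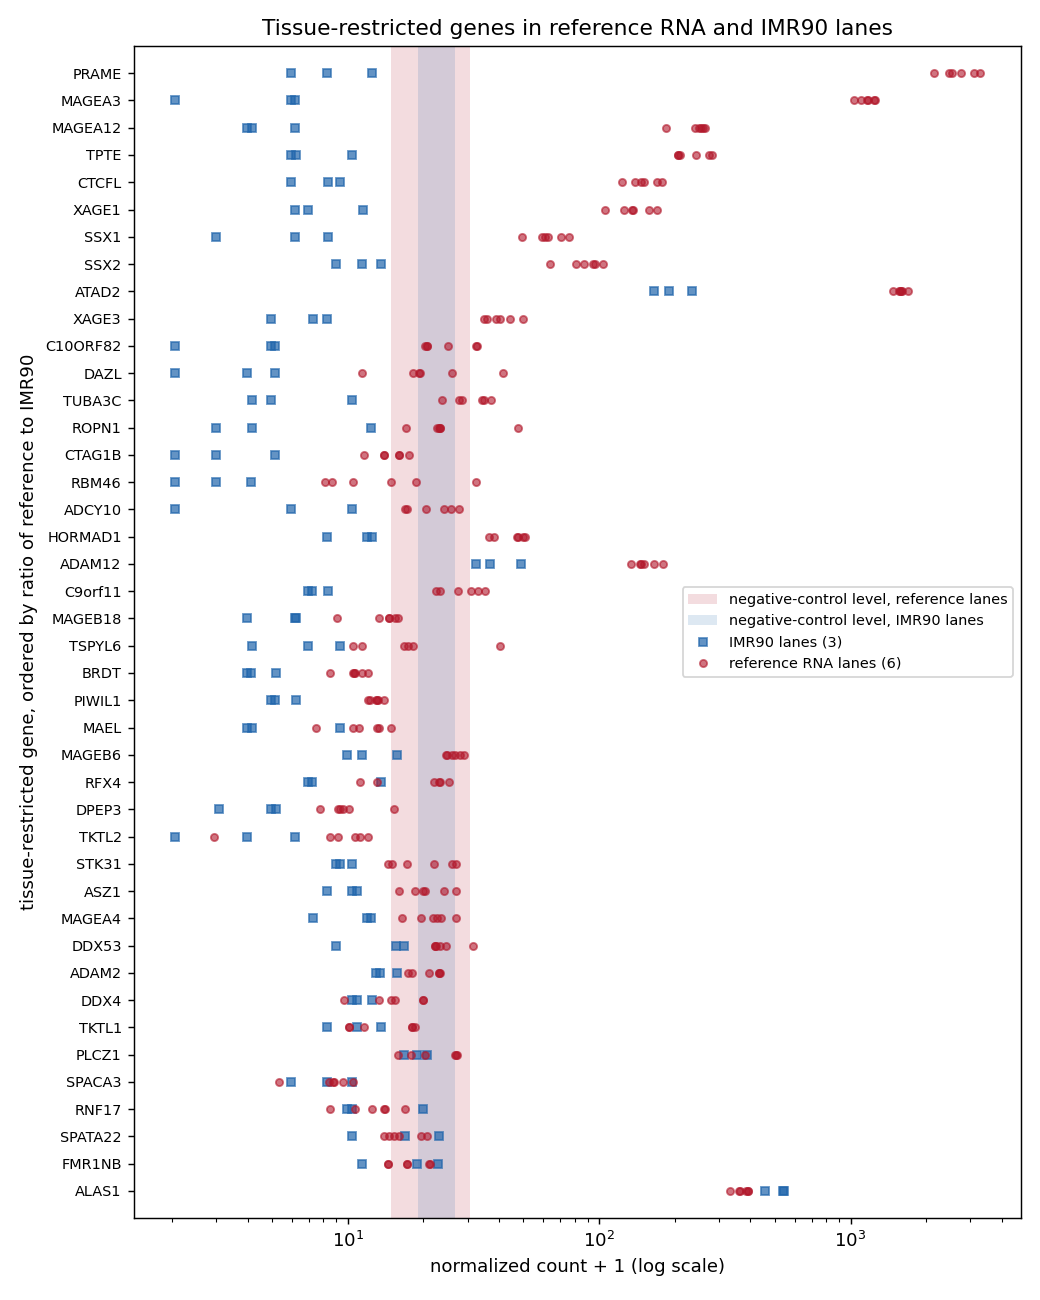
Normalized count + 1 (log scale) of each of the 42 tissue-restricted genes, ordered by ratio, in the 6 reference RNA lanes (circles) and the 3 IMR90 lanes (squares). Shaded bands span the negative-control levels of the lanes, scaled like the counts. The top 10 rows lie to the right of both bands in the reference RNA and, apart from ATAD2, to their left in IMR90, and most rows from C10ORF82 downwards lie at or below the bands in both.

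The 5 MAGE genes encode cancer/testis antigens, several of which partner ubiquitin ligases. All 5 had ratios of 2 or more, with a median of 2.73, and 2 were detected in every reference lane. MAGEA3 had normalized counts of 1033 in the lowest, 1167 at the median and 1253 in the highest of the 6 reference lanes. In the IMR90 lanes it had 4.97, 5.19 and 1.05. The groups were far apart, with a ratio of 251. Its raw counts in the 3 IMR90 lanes summed to 11, for which the exact 95% Poisson interval, covering counting error only, is 5.49 to 19.7. Since IMR90 lay under its negative-control level, only a lower bound of the ratio can be given: set against that level, MAGEA3 was at least 48.2-fold higher in the reference RNA. Bounds hold for the scaling by the 3 housekeeping genes, and with PGK1 alone, which gave the lowest, that of MAGEA3 was 24.4. MAGEA12 ran from 183.1 to 263, with a median of 250.4, in the reference lanes and stood at 2.98, 5.19 and 3.15 in IMR90, with a ratio of 53.5 and at least 10.001-fold higher (5.08 with PGK1 alone). The other MAGE rows were weak. MAGEA4 ran from 15.4 to 25.8, with a median of 21.2, in the reference lanes against 10.9, 11.4 and 6.30 in IMR90. MAGEA4, MAGEB6 and MAGEB18 had ratios of 2.02, 2.29 and 2.73 and were detected in 2, 3 and 1 of the 6 reference lanes and in no IMR90 lane.

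Of the 7 other cancer/testis antigens, 6 had a ratio of 2 or more, 5 were detected in every reference lane and in no IMR90 lane, and 2 were detected in no lane of either RNA. The median ratio of this group, which includes XAGE3 of the placenta, was 8.22. PRAME, a tumor antigen first found through T cells of a melanoma patient, had the highest ratio of all rows. Its normalized counts were 2152 in the lowest, 2651 at the median and 3279 in the highest of the reference lanes. The IMR90 lanes had 4.97, 7.27 and 11.5. The ratio was 345, and against the negative-control level of IMR90 PRAME was at least 111.9-fold higher (56.6 with PGK1 alone). XAGE1 ran from 104.3 to 169.2, with a median of 134.4, in the reference lanes against 5.96, 5.19 and 10.5 in IMR90, at least 5.69-fold higher (2.90 with PGK1 alone). SSX1 and SSX2 encode transcriptional repressors that are known as fusion partners in synovial sarcoma. SSX1 lay between 48.1 and 74.6 (median 60.7) in the reference lanes and at 1.99, 5.19 and 7.35 in IMR90, at least 2.60-fold higher (1.33 with PGK1 alone). SSX2 lay between 62.9 and 102.6 (median 89.7) in the reference lanes and at 7.94, 10.4 and 12.6 in IMR90, at least 3.61-fold higher (1.85 with PGK1 alone). The SSX1 ratio of 13.5 was 8.67 without IMR90 control 1 and 20.9 without control 2. For both SSX genes the lowest reference lane was above the highest IMR90 lane. CTAG1B, the antigen also called NY-ESO-1, and FMR1NB were under the negative-control level in all lanes of both RNAs. CTAG1B had 10.6 to 16.6 in the reference lanes and 1.99, 4.16 and 1.05 in IMR90, and FMR1NB had 13.4 to 20.3 and 21.8, 10.4 and 17.8. The CTAG1B ratio of 4.71 was therefore one between undetected values.

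Of the 7 germline chromatin, transcription and meiosis genes, 6 had a ratio of 2 or more (median 2.61), 3 were detected in every reference lane and 3 in none. CTCFL, the germline paralog of the insulator protein CTCF, ran from 121.96 to 176.9, with a median of 147.4, in the reference lanes. In IMR90 it had 4.97, 8.31 and 7.35. Its ratio was 20.7, and it was at least 6.24-fold higher in the reference RNA (3.18 with PGK1 alone). HORMAD1, a protein of the meiotic chromosome axis, had 35.4 in the lowest, 46.5 at the median and 49.7 in the highest of the reference lanes, and 10.9, 7.27 and 11.5 in IMR90. The ratio was 4.05, but the bound against the IMR90 negative-control level was 1.86-fold, under 2 (0.959 with PGK1 alone). ATAD2, an ATPase whose bromodomain binds acetylated histones, was detected in all lanes of both RNAs, so its ratio is a measured one. It had 1480.5 in the lowest, 1581 at the median and 1698 in the highest of the reference lanes and 188.7, 234 and 164.7 in IMR90, a ratio of 8.18. TSPYL6, BRDT and RFX4 had ratios of 2.61, 2.47 and 2.26, of which TSPYL6 was detected in 2 reference lanes and the other two in none. SPATA22, which acts in meiotic recombination, had a ratio of 1.02 and was detected in no reference lane and in 1 IMR90 lane.

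The 7 germ cell RNA-binding and piRNA genes were under or near the negative-control level. The piRNA pathway silences transposons in germ cells, and DAZL controls translation there. None of the 7 was detected in every reference lane and 3 (DDX4, MAEL and PIWIL1) were detected in no reference lane, although 5 had ratios of 2 or more (median 2.05). DAZL had the highest ratio, 5.80. Its normalized counts in reference lanes 1 to 6 were 40.5, 17.2, 18.3, 10.4, 18.3 and 24.96, and 2.98, 4.16 and 1.05 in IMR90. The highest value is that of reference lane 1, and without this lane the ratio was 5.06. PIWIL1, MAEL, ASZ1 and DDX53 had ratios of 2.43, 2.30, 2.05 and 2.01, and DDX4 and RNF17 had 1.35 and 1.05. DDX53 was detected in 3 reference lanes, ASZ1 and RNF17 in 1 each, and RNF17 also in 1 IMR90 lane.

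The 7 genes of sperm structure and fertilization were not detected in every reference lane in any case, and 4 had a ratio of 2 or more (median 3.85). C9orf11, an acrosome membrane protein now named EQTN, came closest. It was detected in 5 reference lanes, all but lane 1, and had 21.4 in the lowest, 28.1 at the median and 34.2 in the highest of the 6 lanes against 5.96, 6.23 and 7.35 in IMR90. The ratio was 3.85. C10ORF82, now SPMIP5, and the tubulin TUBA3C were detected in 4 reference lanes each, with ratios of 6.16 and 5.36. ROPN1, a protein of the sperm fibrous sheath, was detected in 2, with a ratio of 5.35 that fell to 4.69 without reference lane 1, to 3.45 without IMR90 control 1, and was 8.29 without control 2. ADAM2 and PLCZ1, which act in sperm binding and in egg activation, had ratios of 1.52 and 1.17 and were detected in 2 reference lanes each. SPACA3, an acrosomal protein, had a ratio of 1.12 and was detected in no lane of either RNA.

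Among the 6 enzymes, TPTE, a membrane protein of the testis, was the strong one. Its normalized counts were 205 in the lowest, 225 at the median and 279 in the highest of the reference lanes and 4.97, 9.35 and 5.25 in IMR90, a ratio of 33.8 and at least 9.75-fold higher (4.95 with PGK1 alone). ALAS1, the first enzyme of heme synthesis, was the only tissue-restricted row detected in all lanes with a ratio under 1. It had 329.6 in the lowest, 374 at the median and 388 in the highest of the reference lanes and 454, 538 and 544 in IMR90, a ratio of 0.744, and all reference lanes were below all IMR90 lanes, although with TUBB2A alone as the scaling gene the ratio was 1.96. ADCY10, the soluble adenylyl cyclase of sperm, had a ratio of 4.13 and was detected in 2 reference lanes. DPEP3, TKTL2 and TKTL1 had ratios of 2.23, 2.21 and 1.29 and were detected in no lane of either RNA.

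ADAM12, a metalloprotease abundant in placenta, was detected in all lanes of both RNAs. It had 133.1 in the lowest, 147.6 at the median and 177.8 in the highest of the reference lanes. IMR90 had 35.8, 47.8 and 31.5, and the ratio was 3.999 with no overlap. XAGE3, a cancer/testis antigen of the placenta, had 33.7 in the lowest, 38.6 at the median and 48.99 in the highest of the reference lanes and 3.97, 7.27 and 6.30 in IMR90. Its ratio was 6.50, while its bound was 1.68-fold (0.870 with PGK1 alone). The remaining pair of tissue-restricted genes, RBM46 and STK31, had ratios of 4.66 and 2.09. RBM46 was detected in 2 reference lanes and STK31 in none. RBM46 counted 81 in reference lane 1 and 11 to 33 in the others, and its ratio without lane 1 was 3.92.

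Set against the negative-control level of IMR90, 8 of the 10 genes detected only in the reference RNA were at least 2-fold higher (13.8% of the 58 rows): PRAME, MAGEA3, MAGEA12, TPTE, CTCFL, XAGE1, SSX2 and SSX1. Just inside the detection threshold, XAGE3, HORMAD1 and SSX1 had lowest raw counts of 1.30, 1.56 and 1.86 times the negative-control level of the same lane. Just outside it lay TUBA3C, MAGEB6 and C9orf11, with lowest counts of 0.872, 0.845 and 0.796 times that level. Of the 42 tissue-restricted genes, 13 were detected in every reference lane, 16 in some (38.1%) and 13 in none. Without reference lane 1, C9orf11 joined the genes detected only in the reference RNA, which then were 11 (19% of the 58). The 8 negative-control probes, which match no human RNA, themselves had ratios of 0.507 to 2.02 with a median of 1.08, and 1 of them, NEG_D, reached 2-fold.

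Among the 35 tissue-restricted genes with a RefSeq promoter window, those detected only in the reference RNA did not stand at one end of CG content. The 8 of them with a window held 5 to 44 CG dinucleotides, with a median of 13.5. The 10 detected in no reference lane held 1 to 60, with a median of 22.5. The median of all windows was 14. CCGGAA was found in 3 of the first 8, in 1 of the second 10 and in 6 of all 35, against 17.6% of all RefSeq windows.

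The ratios depend on the 3 housekeeping genes, and these did not keep one proportion between the RNAs. Scaled by the positive-control spikes alone, PGK1, a glycolytic enzyme, was 4.15-fold higher in the reference RNA and TBP, the TATA-binding protein, was 2.80-fold higher, while TUBB2A, a beta tubulin, had a ratio of 0.793. After the scaling to all 3 genes, PGK1 had 19511 in the lowest, 20445 at the median and 21392 in the highest of the reference lanes and 10339, 10049.8 and 10662 in IMR90. TUBB2A had 1500.3 in the lowest, 1589 at the median and 1819.8 in the highest of the reference lanes and 4274, 4290.4 and 4167 in IMR90, 2.64-fold lower in the reference RNA. TBP had 549 in the lowest, 587 at the median and 653 in the highest of the reference lanes and 441, 452 and 439 in IMR90. PGK1 and TBP thus stood above IMR90 and TUBB2A below it. Within a lane, the count of PGK1 over that of TUBB2A was 10.7 to 13.9 in the reference lanes, 2.34 to 2.56 in the IMR90 lanes and 1.54 to 3.50 in the kinase wells. B2M, the light chain of class I HLA molecules, had 15460.3 in the lowest, 15997 at the median and 18764 in the highest of the reference lanes and 35241, 43274 and 37586 in IMR90, which is 2.31-fold lower in the reference RNA, but 1.10-fold lower with the positive controls alone and above IMR90 with TUBB2A alone, at a ratio of 1.15.

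Scaling by the positive controls alone moved the median log2 ratio of the 58 rows by 1.00, by PGK1 alone by -0.86, by TBP alone by -0.38, by TUBB2A alone by 1.34 and by all 4 housekeeping genes by 0.29. With the positive controls alone, 50 rows were 2-fold or more higher (86.2%) and 1 was at 0.5 or less. The 7 scalings compared were these 5, that by the 3 genes together and the authors' deposited table, in which the reference lanes hold unscaled counts. Under them, the strong genes had ratios of 175.2 to 909.8 for PRAME, 127.8 to 663 for MAGEA3, 27.3 to 140.7 for MAGEA12, 17.2 to 89.02 for TPTE and 10.6 to 54.4 for CTCFL. The ratio of ATAD2 ranged from 4.14 to 21.6 and ADAM12 from 2.03 to 10.5. The number of genes whose bound reached 2-fold was 8 with the 3 genes, 6 with PGK1 alone, 7 with TBP alone and 10 with each of the other computed scalings. Of the 14 rows detected in every lane of both RNAs, 7 had a ratio above 1 under all 7 scalings (ADAM12, ATAD2 and the rows named MyrFlag, NeoR, KCNA1, PPM1D and Tet1), and the other 7 lay on both sides of 1, ALAS1 and B2M among them.

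**Figure D2:**
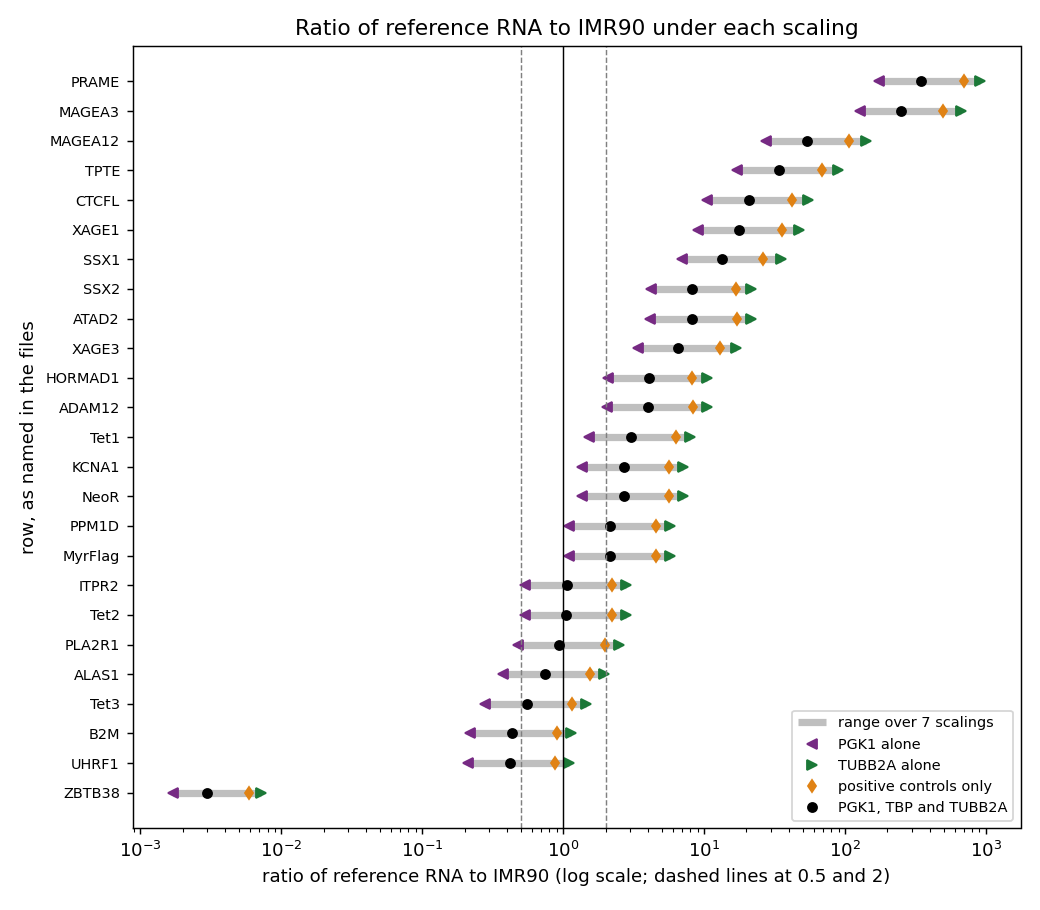
Ratio of reference RNA to IMR90 (log scale) for the rows detected in every lane of at least 1 of the RNAs, with the range over 7 scalings as a bar and 4 of the scalings as symbols. Dashed lines mark ratios of 0.5 and 2. PRAME and MAGEA3 stay furthest above 2 under each, while B2M, ALAS1 and the rows named UHRF1 and Tet3 lie on both sides of 1.

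The 15 other endogenous rows keep their names from the files here, without the roles of these genes, since the names and the counts are at odds. The files list 3 vector sequences first (MyrFlag, NeoR and PuroR) and then 12 human genes in alphabetical order. Human RNA holds no such vector sequences, yet the rows named MyrFlag and NeoR counted 1694 to 3854 and 565 to 1260 in the reference lanes. The row named ZBTB33 was high in wells with kinase vectors, at 149.9 to 114791 normalized counts, against 8.94, 18.7 and 13.6 in the IMR90 lanes. The row named ZBTB38 was also high in the wells, with a median of 12575, and counted in the IMR90 lanes, at 1625, 7188 and 1811. Which probe each of these names belongs to cannot be told from the files.

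Of these 15 rows, 6 were 2-fold or more higher in the reference RNA (40%), 3 were at 0.5 or less (20%) and 10 were detected in every reference lane (66.7%). The row named Tet1 had 1028 in the lowest, 1166 at the median and 1241 in the highest of the reference lanes and 387, 371 and 361 in IMR90, a ratio of 3.02. The row named KCNA1 had 157.1 in the lowest, 166.96 at the median and 177.7 in the highest of the reference lanes and 60.6, 63.4 and 60.9 in IMR90, a ratio of 2.70. The row named NeoR had 409 in the lowest, 504 at the median and 556 in the highest of the reference lanes and 186.7, 180.8 and 167.9 in IMR90, a ratio of 2.69. These 3 rows were higher in each reference lane than in any IMR90 lane. The row named PPM1D had 359 in the lowest, 389 at the median and 429 in the highest of the reference lanes and 175.8, 219 and 154.2 in IMR90, a ratio of 2.17. The row named MyrFlag had 1221 in the lowest, 1523 at the median and 1566 in the highest of the reference lanes and 679, 729 and 640.1 in IMR90, a ratio of 2.16. Neither overlapped between the RNAs. The row named PuroR, with a ratio of 2.59, was detected in no lane.

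In the opposite direction, the row named ZBTB38 was the only one detected in every IMR90 lane and in no reference lane (1.72% of the 58 rows). If the row named ZBTB38 holds a vector sequence, as such a shift would have it, its values describe no human gene. This row counted 8 to 21 in the reference lanes, within the range of negative controls, and 1636, 6919 and 1726 in the IMR90 lanes. Its normalized counts ran from 4.29 to 8.32, with a median of 6.31, in the reference lanes and were 1625, 7188 and 1811 in IMR90, a ratio of 0.00300, and against the reference lanes' negative-control level the row was at least 102.4-fold lower in the reference RNA. The second lane of control 2 lay near the lane of control 1 in this row and far from the other lane of its own name. Other rows went both ways. Among rows detected in every IMR90 lane, this lane lay nearer its own name in ALAS1 and the rows named NeoR, ITPR2 and Tet1. In the rest of them it lay nearer control 1. The averaging of controls and the ratios without 1 control take this lane as control 2, by its title. The row named ZBTB38 also counted in SW39, at 5173 and 6704 normalized counts, and in the kinase wells, at 83.96 to 60001. The row named UHRF1 had 278 in the lowest, 340.1 at the median and 380.2 in the highest of the reference lanes and 698, 1018 and 765 in IMR90, a ratio of 0.419. The row named Tet3 had 1037 in the lowest, 1102 at the median and 1129 in the highest of the reference lanes and 1951, 2012 and 1961 in IMR90, a ratio of 0.553, and for both rows all reference lanes were below all IMR90 lanes. With TUBB2A alone these 2 ratios were 1.11 and 1.46. The row named ZBTB4, with a ratio of 0.488, was detected in no reference lane and in 2 IMR90 lanes. The rows named ITPR2, Tet2 and PLA2R1 were detected in all lanes and close in both RNAs, with ratios of 1.06, 1.05 and 0.940. The row named ITPR2 ran from 657 to 813, with a median of 741, in the reference lanes against 660.4, 727 and 736 in IMR90. That named Tet2 ran from 749 to 950.2, with a median of 913, against 813, 856 and 831. That named PLA2R1 ran from 407 to 589.7, with a median of 462, against 502, 459 and 544. The IMR90 values of these rows fell inside the reference range, and the ratios lay on both sides of 1 over the scalings. The rows named DNMT1 and ZBTB33 had ratios of 1.12 and 1.13, of which the first was detected in no lane and the second in reference lane 1 only.

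The 6 reference lanes measured the error of the assay itself. Over the 21 rows with at least 100 counts in each of them, the coefficient of variation between lanes had a median of 9.54% and a range of 3.32% to 16.9%, 2.59 times what counting error alone gives. Over the 37 weaker rows the median was 22.5%, 1.15 times the counting error. For MAGEA3, PRAME and ATAD2 it was 7.28%, 15.4% and 4.44%, and for RBM46, TSPYL6 and DAZL, whose highest value was in lane 1, it was 62.9%, 60.3% and 47.95%.

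Reference lane 1 differed from the other reference lanes in weak rows and not in strong ones. Over the 21 strong rows its normalized count was 0.942 times the geometric mean of the other lanes at the median, with a range of 0.831 to 1.21. Over the 37 weak rows the median was 1.26, and 5 of them were at 2-fold or more: RBM46 at 2.97, TSPYL6 at 2.93, the row named ZBTB33 at 2.84, DAZL at 2.36 and ROPN1 at 2.25. The negative controls NEG_H and NEG_G, at 80 and 35 counts, were 8.12 and 4.12 times the other lanes. In the other 196 lanes of the series NEG_H had a median of 4 and a highest value of 71. The part of this excess in the counts of the 5 rows was not tested. Without lane 1, the ratio of TSPYL6 was 2.20 and that of the row named ZBTB33 was 0.956, while the 10 genes detected only in the reference RNA had ratios that moved by less than their spread between lanes.

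**Figure D3:**
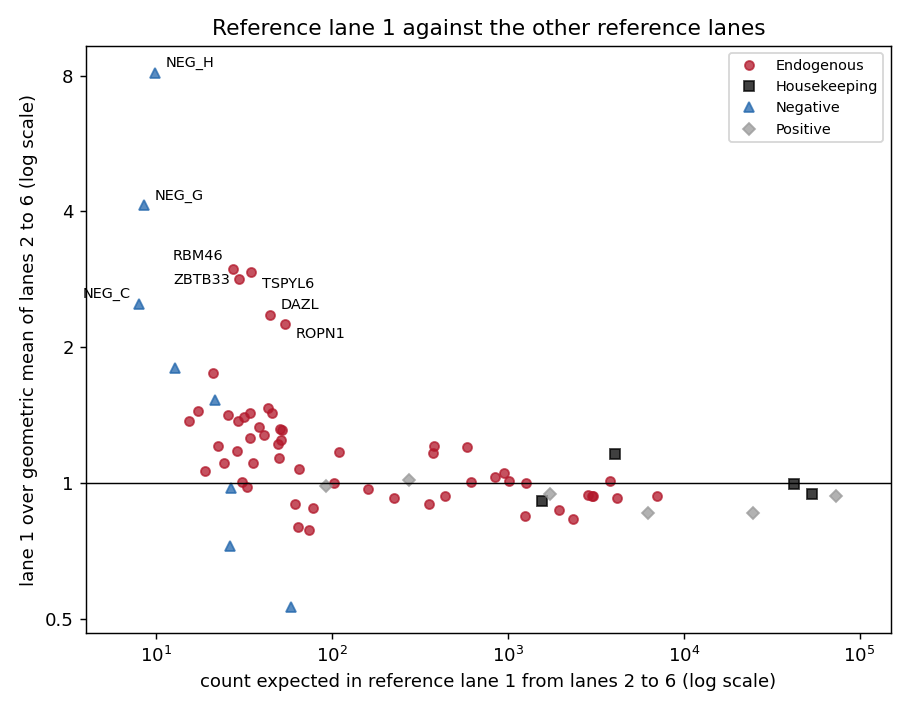
Normalized count of reference lane 1 over the geometric mean of reference lanes 2 to 6 (log scale) against the count expected in lane 1 from those lanes (log scale), for the rows of each code class. Strong rows lie near 1, while NEG_H, NEG_G, NEG_C and 5 weak endogenous rows lie above 2.

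The kinase wells give the range of each row in IMR90 cells under the same assay, and they are a description only. The 1 well with nearly no housekeeping counts was left out. All 6 reference lanes exceeded all wells in 17 of the 58 rows (29.3%), of which 12 were tissue-restricted (28.6%). These were the 10 genes detected only in the reference RNA, ATAD2 and C9orf11. The highest well reached 51.7 for PRAME and 35.02 for MAGEA3, against lowest reference lanes of 2152 and 1033. ADAM12 was above its lowest reference lane in 1 well, which had 514, and the median well had 45.8. Of the 7 rows with ratios above 4 that were not detected in every reference lane, C10ORF82 and TUBA3C reached their lowest reference lane in 3 wells each, ADCY10 and ROPN1 did so in 33 and 65, and DAZL, RBM46 and CTAG1B did so in 65, 52 and 65 wells. At the other end, B2M and the rows named Tet3, UHRF1, ZBTB33 and ZBTB38 were higher in every well than in any reference lane.

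**Figure D4:**
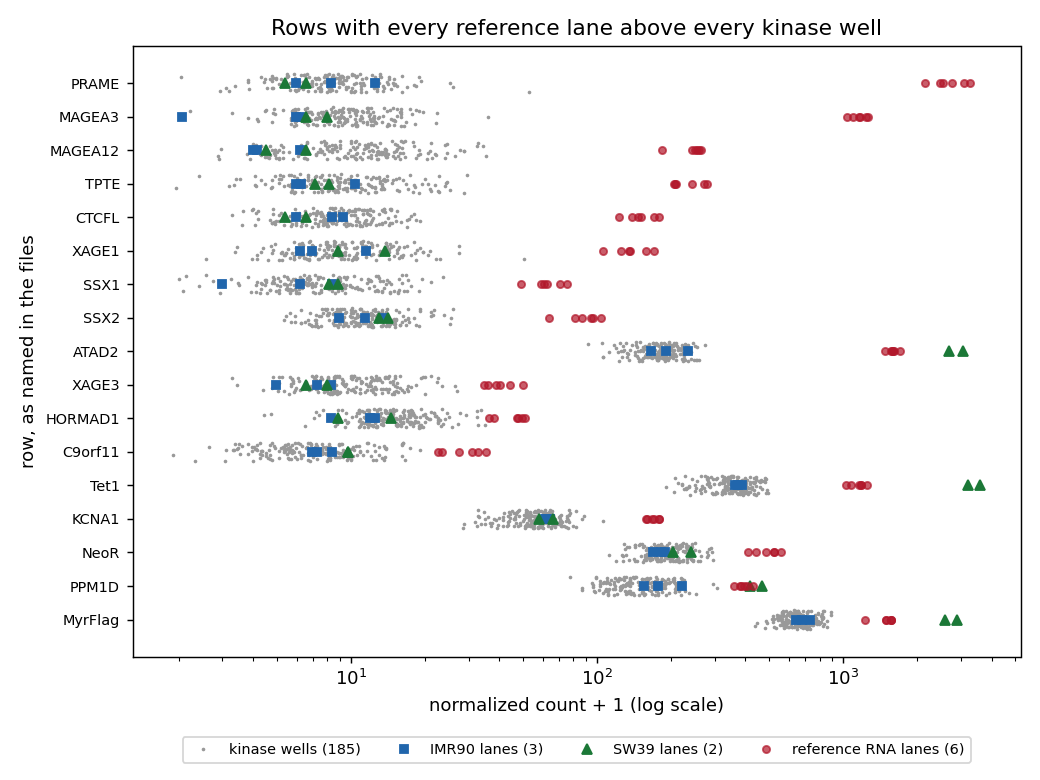
Normalized count + 1 (log scale) of the 17 rows in which every reference RNA lane exceeded every kinase well, for the kinase wells (dots), 3 IMR90 lanes (squares), 2 SW39 lanes (triangles) and 6 reference lanes (circles). SW39 lies with the wells for the top genes and above the reference RNA for ATAD2 and the rows named Tet1 and MyrFlag.

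In SW39, PRAME, MAGEA3, CTCFL and TPTE were under the negative-control level of both lanes. PRAME had 4.38 and 5.57 normalized counts in its 2 lanes, MAGEA3 7.003 and 5.57, CTCFL 4.38 and 5.57, and TPTE 6.13 and 7.16, all within the range of the kinase wells. ATAD2 had 2693 and 3052, which is 1.81 times the reference RNA, and ADAM12 had 93.7 and 120.9, below all reference lanes.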

How the data were processed

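The members and the gene lists were chosen with earlier results of these data known. RNA was counted on the Nanostring nCounter, and the authors deposited raw counts per probe and lane, not normalized, for 197 lanes of 75 rows. They also deposited 1 table for all lanes, in which the signal of a lane is its count times a constant factor. In the 6 reference lanes that factor was 1, so this table was used only as an alternative. This assay needs no read alignment.

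From these, counts were multiplied by 2 factors per lane, the first equalizing the geometric mean of the 6 positive controls and the second that of the housekeeping genes TBP, PGK1 and TUBB2A, with the mean over all 197 lanes as the target. The computations used Python 3.11.15 with numpy 2.4.6, with pandas 2.3.3 and scipy 1.17.1, and matplotlib 3.10.9 for plots. A pseudocount of 1 was added before taking ratios of geometric means, and no negative-control counts were subtracted. The scaling takes the 3 genes as equal per unit of RNA, and where they are not, all ratios shift together. A bound ("at least") is the reference geometric mean over the higher of the IMR90 lane's negative-control level and its own value. Poisson intervals are exact at the 95% level. Intervals cover counting error only, and the total count of a lane, 108768 to 233536 in the reference RNA and 132257 to 152599 in IMR90, sets the precision of weak rows.

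Groups were taken from titles and labels. Since 1 RNA stood on the reference side, no test was made and a ratio of 2 or more, or of 0.5 or less, served as the call. Of the 186 kinase wells, 185 were used, the other having nearly no housekeeping counts. Rows named with all values were, by rule, PRAME, MAGEA3, CTCFL and TPTE, the 15 highest ratios among rows detected in every reference lane, the 10 lowest among rows detected in every IMR90 lane, and the 4 housekeeping genes. The rest are named as examples of their list or where 5 or fewer were counted. Promoter windows came from a RefSeq table of GRCh38.p14, in which 55 of 61 rows were found by accession. Alternatives covered scaling, background, detection level, pseudocount, filter and each lane left out, of which the level from 6 negative controls and the counts of wells without reference lane 1 were chosen after seeing the data. The computations were tested on simulated counts with counting error only, for well-counted rows and with housekeeping genes equal in both RNAs. Weak rows and unequal housekeeping genes were not tested in this way.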

Additional observations from a re-analysis of the deposited data

Results flagged for a closer look

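For each of the 58 rows, the highest and the lowest of the 6 reference lanes were compared with the next lane, as the gap divided by the whole range of the row. In 9 rows the gap exceeded Dixon's 95% critical value of 0.625. Chance flags about 1 in 20 groups.

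In 2 of the 9 the lane that stood apart was lane 1, as the highest: ROPN1 had 46.7 normalized counts there against 16.1 to 22.4 in the other lanes (gap over range 0.695), and the row named ZBTB33 had 32.4 against 9.73 to 13.5 (0.738). In the other 7 the lane that stood apart varied. DDX53 was highest in lane 6, at 30.5 against 21.1 to 23.6 (0.702), and B2M in lane 2, at 18764 against 15460.3 to 16295 (0.728). MAGEA12 was lowest in lane 3, at 183.1 against 241 to 263 (0.757), as were SPACA3, at 4.32 against 7.39 to 9.49 (0.672), and the row named MyrFlag, at 1221 against 1485 to 1566 (0.788). MAGEB18 was lowest in lane 2, at 8.04 against 12.3 to 14.8 (0.698), and TKTL2 in lane 4, at 1.95 against 7.51 to 11.1 (0.751).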

How the results depend on the processing

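Of the rows 2-fold or more higher in the reference RNA, 39 with the settings used, 20 were left with PGK1 alone as the scaling gene, 24 with TBP alone, 15 with values raised to the negative-control level, 23 with a pseudocount of 10 and 17 among rows detected in every lane of either RNA. The 4 rows at 0.5 or less became 7 with PGK1 alone and 1 with the positive controls only, with all 4 housekeeping genes, with TUBB2A alone and in the deposited table. The pseudocount, the raised values and the detection filter lower the count by construction, since they raise or drop weak values, and another scaling moves all ratios of a lane together. The median spread of the reference lanes was 33.5% in the deposited table, where these lanes are unscaled, against 16.5%. Leaving out each lane gave 34 to 39 rows higher, 3 to 4 lower, 24 to 25 detected in every reference lane and 10 to 11 of those in no IMR90 lane. Among the rows at 2-fold or more, or at 0.5 or less, with the settings used, the log2 ratio changed sign with values raised to the negative-control level for BRDT, CTAG1B, DPEP3, MAEL, PIWIL1, RFX4, STK31, TKTL2 and the row named PuroR (each -0.022) and for MAGEB18 (-0.014). With negative controls subtracted it did so for BRDT (-0.053), DPEP3 (-0.17) and TKTL2 (-0.14). With TUBB2A alone it did so for the rows named UHRF1 (0.15) and ZBTB4 (0.27) and for B2M (0.20). The rows at -0.022 were detected in no lane of either RNA, so that value is the log2 ratio of the levels alone. Of the 10 genes detected only in the reference RNA, 8 kept a ratio of 2 or more under all 20 alternatives. HORMAD1 and XAGE3 did not, at 1.86 and 1.68 with values raised to the negative-control level. Those values are their bounds, so the 8 are the genes already given with a bound of 2-fold or more. The genes were chosen for detection in the reference lanes and not in IMR90, so their high ratios are no separate support. Alternatives changed 1 setting at a time, and with PGK1 alone the bounds of SSX1 and SSX2 were 1.33 and 1.85. In some reference lane, 29 of the 42 tissue-restricted genes were under the negative-control level, and the part of depth in this was not tested. No paired analysis was possible because no label ties a reference lane to an IMR90 lane of the same number and the comparison has no test.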
